A study of Mus musculus with 2 samples.

Results

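The cell cycle genes described here were 38 of the 32285 mouse genes counted in a pair of single-cell RNA-seq libraries. They were listed by name as well known cycle genes, by a rule that uses no measured level, and all 38 were present in both matrices. The G1/S part held 15 genes that act at the start of DNA replication, the G2/M part held 22 genes that act in mitosis, and Cdkn1a, a cyclin-dependent kinase inhibitor, stood apart. Their levels were read in endothelial cells (ECs), T cells, thymocyte-like cells, macrophages, stromal cells and cells with Hmga2 transcripts, to ask whether loss of Dnmt1 in ECs moved the balance between phases.

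The study sorted CD31+ CD45− cells from YUMMER1.7 mouse melanomas grown in control mice and in Dnmt1iECKO mice, and made 1 10x Genomics library from each. Each library pooled the tumors of 3 female mice of 8 to 10 weeks of age, so the animals could not be told apart and no spread between mice was measured. Dnmt1iECKO mice carried Cdh5CreERT2, Dnmt1fl/fl and ZsGreenlsl/lsl. Cre in this line is induced by tamoxifen and driven by the Cdh5 promoter, which is active in endothelium, so other cells of the tumor should keep Dnmt1. The control is labelled C57BL/6, while the study's methods give its controls the same Cre driver and the ZsGreen reporter. The labels describe injection under the skin and the methods describe lung tumors after injection into the tail vein, and the lung epithelial genes Sftpc and Ager were detected in both libraries.

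The control library held 9301 cell barcodes and 123830489 UMIs, and the Dnmt1iECKO library 9522 barcodes and 141433493 UMIs. Median depth was 8904 and 8762 UMIs per cell, and 29 barcodes occurred in both libraries. After filters on genes, mitochondrial share and doublet score, 7764 control and 7839 Dnmt1iECKO cells remained. Endothelial cells were those with Cdh5 or Pecam1 and with neither Ptprc nor Hmga2 (5314 control, 2274 Dnmt1iECKO), and all 10 endothelial markers were found in at least 10% of them in both libraries. Despite the CD45 gate, the libraries held T cells (406 and 1505) and macrophages (410 and 1131). With 1 library per condition no test of a difference between conditions was possible. All intervals below are 95% intervals for counting error alone (Clopper-Pearson for shares, Poisson for UMIs), and those for UMIs are too narrow because cycle transcripts cluster in few cells.

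Proliferating cells pass through G1, replicate DNA in S phase, and separate the copies in mitosis. Genes of the G1/S wave, such as the Mcm helicase subunits, Pcna and the ribonucleotide reductases, are switched on by E2F factors, while genes of the G2/M wave, such as Top2a, Mki67, Cdk1 and the B-type cyclins, rise later through the MuvB complex with B-Myb and FoxM1. Dnmt1 copies methylation onto the new DNA strand at replication forks, where it binds Pcna. Endothelium is mostly quiescent in adult vessels and enters the cycle where vessels grow.

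The later wave is known for promoters that carry CCAAT boxes, bound by NF-Y, and a cell cycle homology region (CHR), bound by MuvB. The 250 bases before the start site of 3 G2/M and 3 G1/S members, those of each part with the most UMIs that had a window, are shown to let these letters be seen. They were taken from RefSeq on GRCm38.p6 and are written 5′ to 3′ on the gene's strand. The windows are chr11:99024190-99024439 (− strand), chr7:135716380-135716629 (− strand), chr2:164769679-164769928 (+ strand), chr2:132253181-132253430 (− strand), chr7:102441445-102441694 (+ strand) and chr1:20820313-20820562 (− strand). Capitals mark the CHR letters TTTGAA or TTCAAA, the CCAAT box letters CCAAT or ATTGG, and the E2F letters listed below.
Top2a: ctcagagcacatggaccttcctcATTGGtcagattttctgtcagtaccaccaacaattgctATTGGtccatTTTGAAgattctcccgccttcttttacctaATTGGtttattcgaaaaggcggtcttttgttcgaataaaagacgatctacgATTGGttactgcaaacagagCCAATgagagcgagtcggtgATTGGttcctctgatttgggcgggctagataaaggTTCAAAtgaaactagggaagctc
Mki67: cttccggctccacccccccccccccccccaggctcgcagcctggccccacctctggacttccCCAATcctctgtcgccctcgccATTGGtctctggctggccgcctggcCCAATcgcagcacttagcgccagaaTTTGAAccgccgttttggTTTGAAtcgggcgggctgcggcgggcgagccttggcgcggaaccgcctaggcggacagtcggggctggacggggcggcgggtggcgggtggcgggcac
Ube2c: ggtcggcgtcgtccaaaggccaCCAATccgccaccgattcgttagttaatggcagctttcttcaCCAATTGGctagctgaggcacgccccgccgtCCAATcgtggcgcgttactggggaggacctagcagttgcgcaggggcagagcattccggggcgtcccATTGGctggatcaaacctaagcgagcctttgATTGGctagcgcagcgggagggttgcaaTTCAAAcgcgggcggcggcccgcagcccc
Pcna: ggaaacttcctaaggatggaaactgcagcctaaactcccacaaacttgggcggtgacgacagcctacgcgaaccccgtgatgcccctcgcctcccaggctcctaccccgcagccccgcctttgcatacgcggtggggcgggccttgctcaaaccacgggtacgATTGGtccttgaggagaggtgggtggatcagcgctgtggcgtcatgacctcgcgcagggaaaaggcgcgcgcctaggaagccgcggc
Rrm1: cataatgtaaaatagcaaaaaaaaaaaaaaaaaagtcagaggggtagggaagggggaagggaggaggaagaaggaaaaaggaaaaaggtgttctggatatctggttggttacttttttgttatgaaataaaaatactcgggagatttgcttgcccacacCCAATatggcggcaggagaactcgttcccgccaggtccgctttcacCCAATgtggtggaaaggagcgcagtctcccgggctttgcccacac
Mcm3: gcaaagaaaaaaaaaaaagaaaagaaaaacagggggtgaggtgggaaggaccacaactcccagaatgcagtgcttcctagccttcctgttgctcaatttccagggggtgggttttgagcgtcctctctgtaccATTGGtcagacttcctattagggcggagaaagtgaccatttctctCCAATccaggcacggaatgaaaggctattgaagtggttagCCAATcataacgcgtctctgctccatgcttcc

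Each of the 3 G2/M windows held CHR letters and CCAAT letters, with 2 CHR and 6 CCAAT matches in Top2a, 2 and 3 in Mki67, and 1 and 6 in Ube2c. The CHR letters nearest the start began 23 bases before it in Top2a, 98 bases before it in Mki67 and 29 bases before it in Ube2c. The windows of Pcna, Rrm1 and Mcm3 held 1, 2 and 3 CCAAT matches and no CHR letters. Of the 38 members, 32 had a window in the table used, and Gins2, Tpx2, Aurkb, Ccna2, Mcm4 and Ccne2 did not. Both CHR and CCAAT letters were found in 6 of 19 G2/M windows (31.6%), in 2 of 12 G1/S windows (16.7%) and in 5.73% of the windows of 27025 genes. CCAAT letters alone were in 84.2% of G2/M windows, 66.7% of G1/S windows and 34.5% of all windows. The E2F letters TTTCCCGC, TTTGGCGC, TTTCGCGC and TTTGCCGC, searched like the others on both strands and free to overlap, were in 3 of 12 G1/S windows (25.0%), 1 of 19 G2/M windows (5.26%) and 1.91% of all windows. A match describes letters in the window and not a bound site.

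The share of endothelial cells in cycle did not differ between the libraries beyond counting error in the main count, and its direction depended on the processing. A cell was counted as cycling when at least 3 of the 37 G1/S and G2/M members were detected after each cell was thinned to 2000 UMIs. By this count 174 of 4969 control ECs were cycling (3.50%, interval 3.01 to 4.05%) and 80 of 2105 Dnmt1iECKO ECs (3.80%, 3.02 to 4.71%), a log2 ratio of 0.12 (−0.28 to 0.51). The log2 ratio was 0.49 (0.03 to 0.94) when cells were thinned to 1000 UMIs, 0.36 (0.02 to 0.68) when cells with Hmga2 were kept in the gate, and −0.40 (−0.87 to 0.05) with doublets removed at 0.8% instead of 0.4% per 1000 cells. In these ECs the endothelial markers summed to 8652 and 7610 UMIs per 1000000 UMIs of the gate (CPM), the stromal markers to 612 and 958 CPM and the epithelial markers to 3431 and 3035 CPM, and their part in the values below was not tested. In lung epithelial cells of the same libraries, which should rarely cycle, the share was 4 of 240 (1.67%, 0.46 to 4.21%) and 0 of 113, which allows up to 2.65%. This reference was not fully separate, since 113 of 281 control and 40 of 128 Dnmt1iECKO epithelial cells carried Cdh5 or Pecam1 and were in the endothelial gate too. The median depth was 10052 and 10401 UMIs in ECs and 15475 and 19456 UMIs in the epithelial reference, and thinning left out 345 and 169 ECs and 41 and 15 epithelial cells with fewer than 2000 UMIs.

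Without thinning, the share of ECs with at least 3 members was 28.9% in control and 32.5% in Dnmt1iECKO, which lay below the 35.9% and 43.8% of the epithelial reference. These unthinned shares, with a log2 ratio of 0.17 (0.04 to 0.30), are not read as expression. Thinned shares by phase were close as well. At least 3 G1/S members were detected in 1.63% (1.30 to 2.02%) of control and 1.71% (1.20 to 2.36%) of Dnmt1iECKO ECs, and at least 3 G2/M members in 2.17% (1.79 to 2.62%) and 2.61% (1.97 to 3.39%). Among the cycling ECs, 62.1% in control (54.4 to 69.3%) and 68.8% in Dnmt1iECKO (57.4 to 78.7%) had at least 3 G2/M members, so the phase split of cycling cells was not distinguishable at this number of cells.

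**Figure D1:**
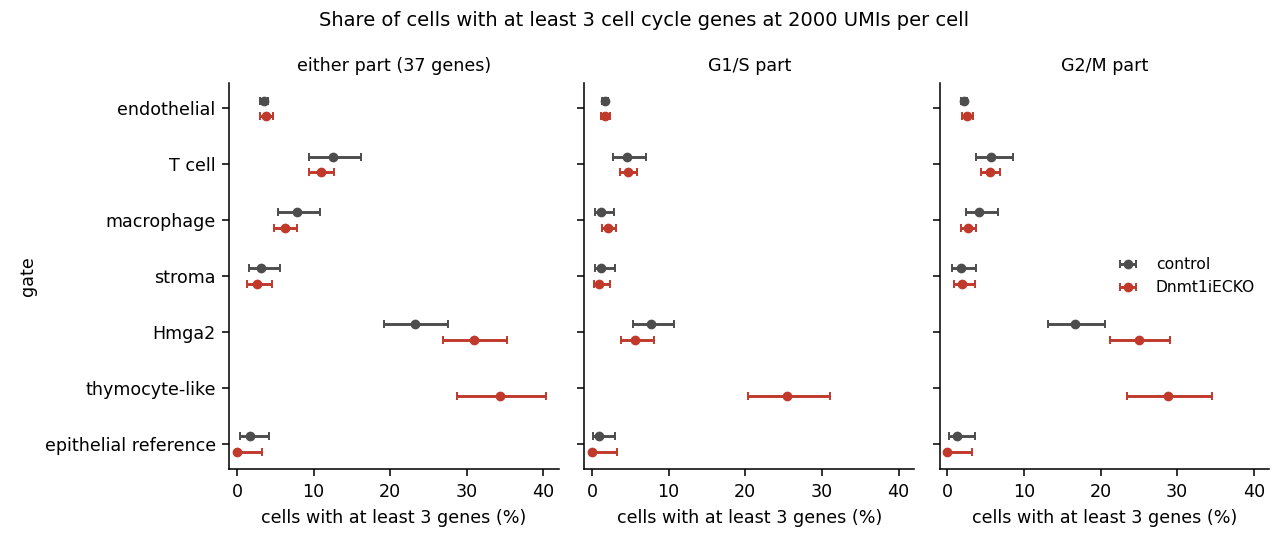
Share of cells with at least 3 cell cycle genes at 2000 UMIs per cell (x axis, %) by gate (y axis), for the 37 members of either part and for the G1/S and G2/M parts alone. Points are libraries (grey control, red Dnmt1iECKO) and bars are 95% Clopper-Pearson intervals. Endothelial shares of 3.50% and 3.80% overlap. For either part and for the G2/M part, the Hmga2 and thymocyte-like gates lie far above the other gates. In the G1/S part only the thymocyte-like gate does. There the intervals of the Hmga2 gate (7.73% and 5.66%) and of T cells (4.51% and 4.63%) overlap.

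Summed transcripts gave another picture from cell shares. The G1/S part summed to 242 CPM in control ECs and 251 CPM in Dnmt1iECKO ECs, a log2 ratio of 0.05. The G2/M part summed to 385 CPM and 559 CPM, a log2 ratio of 0.54 (0.51 to 0.57). The ratio of G1/S to G2/M transcripts was thus 0.63 in control and 0.45 in Dnmt1iECKO ECs, a difference of −0.49 on the log2 scale (−0.53 to −0.44). These sums rest on few cells: 75.6% of control and 70.7% of Dnmt1iECKO ECs had no G2/M transcript at all, and the 1% of ECs with the most held 76.2% and 69.6% of all G2/M UMIs.

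The direction of the G2/M difference was set by 26 cells with high doublet scores. When the assumed doublet rate was raised from 0.4% to 0.8% per 1000 cells, the G2/M sum of Dnmt1iECKO ECs went from 559 to 284 CPM, while that of control ECs went from 385 to 398 CPM. The phase balance then turned to 0.36 (0.31 to 0.42), and the cycling share was 2.66% in Dnmt1iECKO against 3.51% in control. The cells removed by this step included 26 cycling Dnmt1iECKO ECs and 5 cycling control ECs. Those 26 cells held 52.1% of the G2/M UMIs and 13.4% of the G1/S UMIs of all Dnmt1iECKO ECs, whereas the 5 control cells held 2.15% of the control G2/M UMIs. At 0.6% the balance was −0.34.

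The 26 cells had a median of 31206 UMIs, against 13524 UMIs in the 54 cycling Dnmt1iECKO ECs that stayed. Pecam1 was detected in 100% and Cdh5 in 92.3% of them. Their Cdh5 level was 704 CPM against 1075 CPM in the other cycling ECs, and their Pecam1 level 751 CPM against 1197 CPM. The sum of the 10 stromal markers was 902 CPM in the 26 cells and 111 CPM in the other cycling ECs. In the 1976 non-cycling Dnmt1iECKO ECs that stayed it was 928 CPM. The 10 epithelial markers summed to 91.7 CPM in the 26 cells and 114 CPM in the other cycling ECs. Of the 26 cells, 24 had an endothelial marker sum above the stromal and the epithelial sum. Dnmt1 was at 87.1 CPM in the 26 cells and 91.3 CPM in the other cycling ECs. Whether the 26 are doublets or single cells with large RNA content was not tested. Endothelial levels below are those at 0.4%, and each named member's ratio at 0.8% is given with them.

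**Figure D2:**
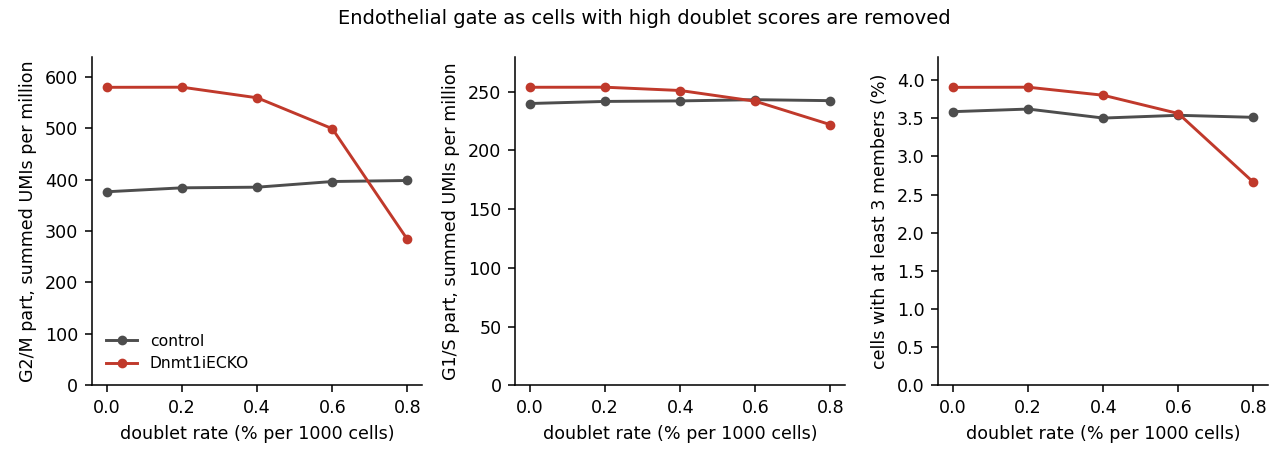
Endothelial gate as more cells with high doublet scores are removed (x axis, doublet rate in % per 1000 cells), for the summed G2/M level, the summed G1/S level (both CPM) and the share of cells with at least 3 members (%). The control (grey) stays near 385 CPM of G2/M transcripts, while Dnmt1iECKO (red) drops from 559 to 284 CPM between rates of 0.4 and 0.8%.

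At the rate of 0.4%, all 22 G2/M members were higher in Dnmt1iECKO ECs, and 14 of them by at least 0.5 on the log2 scale, against 10.2% of all 14876 genes with at least 50 UMIs in these cells (4.4% of genes were lower by as much). Their median log2 ratio was 0.54, and that of all genes −0.01. At 0.8% all 22 were lower, 10 of them by at least 0.5, against 5.3% of all genes (7.98% higher, 13.3% either way), and their median was −0.49. A stricter gate kept the 5021 control and 2092 Dnmt1iECKO ECs whose endothelial marker sum exceeded the stromal and the epithelial sum. In it 14 of 22 were higher by 0.5 at the rate of 0.4% and none was lower, against 8.07% and 4.39% of genes (12.5% either way). This gate still held 24 of the 26 high-score cells, so it could not serve as a separate check. Ccnb1, the cyclin that drives entry into mitosis, was at 3.04 CPM in control and 5.14 CPM in Dnmt1iECKO ECs. Its log2 ratio of 0.76 (0.44 to 1.06) was the highest of the part, and at 0.8% it was −0.12 (−0.52 to 0.26). Cdk1, the kinase that Ccnb1 activates, was at 11.2 and 18.3 CPM, a log2 ratio of 0.71 that became −0.23. Both genes of the kinase pair thus followed the sum in both settings.

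Mki67, which coats mitotic chromosomes and is the usual marker of proliferation, was at 57.6 CPM in control and 83.5 CPM in Dnmt1iECKO ECs, a log2 ratio of 0.54 (0.46 to 0.61) that turned to −0.51. Top2a, the topoisomerase that untangles sister DNA, was at 60.9 and 83.6 CPM, a ratio of 0.46 that turned to −0.66. Both genes turned with the sum, and they were the most abundant G2/M members in ECs. Ube2c, a ubiquitin-conjugating enzyme of the anaphase-promoting complex, was at 22.7 and 36.0 CPM (0.66, and −0.52 at 0.8%). The spindle midzone protein Prc1 was at 27.6 and 43.3 CPM (0.65, then −0.48), the kinetochore protein Cenpf at 42.8 and 66.4 CPM (0.64, then −0.25), and Birc5 of the chromosomal passenger complex at 12.8 and 20.2 CPM (0.65, then −0.59). Aurkb, the kinase of the same complex, was at 3.21 and 4.91 CPM (0.61, then −0.42). Each of these genes turned from higher to lower. Lower in the order were Aurka, the spindle pole kinase, at 3.56 and 4.78 CPM (0.42, then −0.46), Ccna2, the A-type cyclin, at 6.89 and 9.16 CPM (0.41, then −0.73), and the checkpoint kinase Bub1b at 3.93 and 5.20 CPM (0.41, then −0.33). The smallest difference was that of the formin Diaph3, at 22.2 and 26.3 CPM (0.24), which was also the lowest member at 0.8% with −0.82.

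The G1/S members were closer between the libraries. At the rate of 0.4% none of the 15 differed by 0.5 in either direction (background 14.6% of genes), and their median log2 ratio was 0.09. At 0.8% 14 of the 15 lay below 0, 4 of them by at least 0.5, against 5.3% of genes, and their median was −0.20. Pcna, the sliding clamp of replication, had the highest level and stood at 92.7 CPM in both libraries (0.00, and −0.08 at 0.8%). Mcm3, a subunit of the replicative helicase, was at 29.3 CPM in control and 26.5 CPM in Dnmt1iECKO ECs (−0.15, then −0.27), while Mcm2 of the same helicase was at 6.53 and 8.31 CPM (0.35, then 0.23), the highest of the part. Subunits of 1 complex thus lay on both sides of 0 at both rates. Rrm1, the large subunit of ribonucleotide reductase, was at 26.4 and 30.8 CPM (0.22, and −0.00 at 0.8%). Rrm2, the regulated subunit of ribonucleotide reductase, was at 6.66 and 8.41 CPM (0.34, and −0.58 at 0.8%). The loading factor Cdc6 was at 1.99 and 2.42 CPM (0.28, then −0.31), the helicase cofactor Gins2 at 3.33 and 3.93 CPM (0.24, then −0.13), Mcm5 at 4.53 and 5.30 CPM (0.22, then −0.18) and Mcm4 at 23.2 and 23.6 CPM (0.02, then −0.06). The E-type cyclins, which start S phase, were the lowest. Ccne2 was at 4.82 and 3.79 CPM (−0.35, and −1.09 at 0.8%), and Ccne1 at 2.30 and 2.06 CPM (−0.16, then −0.63).

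Cdkn1a, the inhibitor, was lower in the knockout under both settings. At 2000 UMIs it was detected in 52.5% of control and 46.6% of Dnmt1iECKO ECs. It was at 725 CPM in control and 581 CPM in Dnmt1iECKO ECs, a log2 ratio of −0.32 (−0.34 to −0.29), and −0.31 at 0.8%. Its level hardly differed between cycling and other ECs, with log2 differences of 0.07 in control and 0.03 in Dnmt1iECKO. Lower Cdkn1a in the Dnmt1iECKO library was not limited to ECs, since each of the 4 other gates compared below also lay below 0. By detected share at 2000 UMIs, and not by level, the epithelial reference went the other way. Cdkn1a was detected in 19.2% of its 240 control cells and 29.2% of its 113 Dnmt1iECKO cells, and this difference was not tested.

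**Figure D3:**
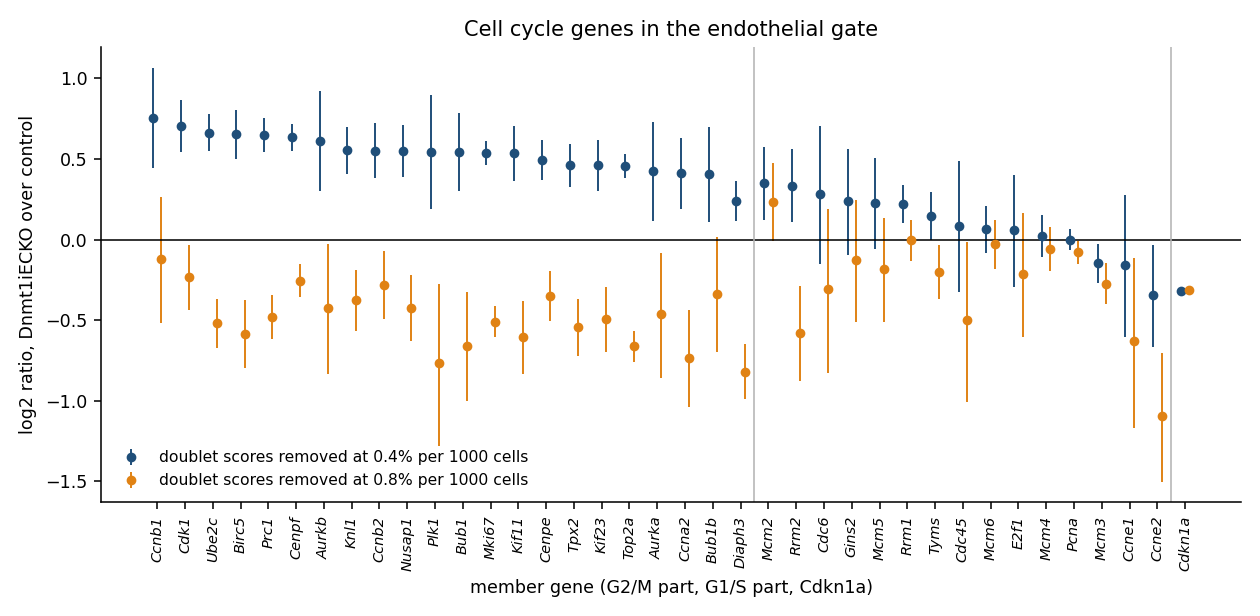
Log2 ratio of Dnmt1iECKO over control in the endothelial gate (y axis) for the 38 members (x axis), with doublet scores removed at 0.4% (blue) and 0.8% per 1000 cells (orange). Bars are 95% intervals of counting error. All 22 G2/M members are above 0 in blue and below 0 in orange, while Cdkn1a stays at −0.32 and −0.31.

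Other genes of the cycle were read from lists of 88 genes in 6 groups, beside a background of 10.2% of genes higher by at least 0.5 at the rate of 0.4% and 7.98% at 0.8%. The mitosis list followed the G2/M members, with 13 of 25 genes higher by at least 0.5 and a median of 0.54. Hmgb2, a chromatin protein of dividing cells, was at 139 CPM in control and 207 CPM in Dnmt1iECKO ECs (0.58), and Smc4, a condensin subunit, at 110 and 131 CPM (0.25). At the rate of 0.8% none of the 25 was higher by 0.5, 2 were lower and the median was −0.30. Replication genes outside the members had 3 of 23 higher (Mcm10, Pole and Tk1, named after their values were seen) and none lower, a share near the background, with a median of 0.15, and −0.15 at 0.8%. Of the histone genes 6 of 10 were higher, with a median of 0.70, and at 0.8% 1 of 10 was higher and 5 lay below 0.

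The p53 targets lay lower at both rates, as did Ccnd2 and Cdkn2b. All 10 targets lay below 0, with a median of −0.25 at 0.4% and −0.22 at 0.8%. Of all genes compared at 0.4%, 7686 of 14876 lay below 0. At both rates 2 of 10 targets were lower by at least 0.5, against 4.4% of genes at 0.4% and 5.3% at 0.8%. Phlda3, an inhibitor of Akt signalling, was at 167 CPM in control and 109 CPM in Dnmt1iECKO ECs (−0.61), and the stress cytokine Gdf15, named after its value was seen, had a log2 ratio of −1.15. The same targets lay below 0 in 9 of 9 counted in T cells (median −0.23) and 10 of 10 in stroma (−0.51). In macrophages 6 of 9 lay below 0 (−0.05), and in the Hmga2 gate 6 of 10 (−0.06). Of all genes compared, 6606 of 11990 lay below 0 in T cells and 6780 of 12176 in stroma. In macrophages 6478 of 12635 did, and in the Hmga2 gate 6828 of 13546. These gates were not free of endothelial transcripts. Cdh5 was detected in 16.0% of control and 5.42% of Dnmt1iECKO stroma cells, and in 35.2% and 21.0% of Hmga2 gate cells. Of the 14 G1 regulators 1 was higher (Myc, 0.76) and 1 lower, with a median of 0.04 and 8 above 0, and at 0.8% the median was −0.06 and 12 lay below 0. Ccnd2, a D-type cyclin, was at 216 and 144 CPM (−0.59, and −0.57 at 0.8%), while Ccnd1 was at 522 and 497 CPM (−0.07). Of the 6 inhibitors besides Cdkn1a, Cdkn2b was lower, at 58.0 and 30.5 CPM (−0.93, and −0.90 at 0.8%). Cdkn2c was higher at 0.4% (0.67), but by less than 0.5 at 0.8% (0.27). Myc and Cdkn2c were named after their values were seen. The median of the 6 inhibitors was −0.02, and −0.03 at 0.8%.

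Dnmt1 itself was at 47.1 CPM in control and 25.6 CPM in Dnmt1iECKO ECs, a log2 ratio of −0.88, and at 82.0 and 83.4 CPM in T cells. It was at 38.6 and 36.4 CPM in macrophages, 24.4 and 20.8 CPM in stroma, and 29.9 and 19.0 CPM in the epithelial reference (−0.65, −1.12 to −0.20), which shares cells with the endothelial gate. The libraries count 3′ ends, and which exons were floxed is not given in the labels, so remaining Dnmt1 UMIs do not measure how complete the deletion was. Cycling ECs had more of it in both libraries, at 138 CPM against 41.8 CPM in the other control ECs (1.72) and at 89.4 against 21.4 CPM in the knockout (2.06). Cycling cells were also deeper, with median depths of 14435 against 10491 UMIs in control and 20375 against 10989 UMIs in Dnmt1iECKO.

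Aerocyte-like ECs had a lower cycling share than general capillary-like ECs in both libraries. Aerocyte-like ECs, the thin capillary cells of gas exchange, were cycling in 14 of 1412 cells in control (0.99%) and 7 of 479 cells in Dnmt1iECKO (1.46%). General capillary-like ECs, which can renew the capillary bed, were cycling in 129 of 2925 (4.41%) and 52 of 1150 cells (4.52%), and vein-like ECs in 10 of 186 (5.38%) and 9 of 215 cells (4.19%). Lymphatic-like ECs had the highest share but few cells, at 6 of 33 (18.2%, 6.98 to 35.5%) and 3 of 14 (21.4%, 4.66 to 50.8%), and artery-like ECs had 2 of 43 (4.65%) and 3 of 34 (8.82%). The intervals of the libraries overlapped within each of these kinds. In the same direction, the summed aerocyte markers were lower in cycling than in other ECs by 2.30 and 2.08 log2 units, while tip cell markers were higher by 0.58 and 0.75 and lymphatic markers by 0.64 and 1.12.

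T cells, which keep Dnmt1 in this model, had a higher share in cycle than ECs and no difference between libraries beyond counting error. After thinning, 50 of 399 control T cells (12.5%) and 164 of 1491 Dnmt1iECKO T cells (11.0%) were cycling, a log2 ratio of −0.19 (−0.65 to 0.30), and unthinned shares were 54.9% and 55.0%. Thinning left out 7 and 14 shallower cells. The G1/S sum was 554 and 546 CPM, the G2/M sum 945 and 987 CPM, and the balance −0.08. It became 0.12 at a doublet rate of 0.8%. Of the 22 G2/M members 2 were higher by at least 0.5 and none was lower, against 5.17% and 12.8% of genes (18% either way). These were Ccnb1 (0.96) and Ube2c (0.66). Of the G1/S members Ccne1 was higher (0.59) and Ccne2 lower (−0.81). Cdkn1a was at 185 and 117 CPM (−0.65).

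Cells with Ptprc and with the recombination genes Rag1 or Dntt, which mark immature thymocytes, were nearly all in the Dnmt1iECKO library (277 cells against 5) and had the highest cycling share. At least 3 members were detected in 93 of 271 thinned cells (34.3%, 28.7 to 40.3%), with 6 shallower cells left out, and in 57.0% unthinned. At least 3 G1/S and at least 3 G2/M members were detected together in 66.7% of these cycling cells and in 27.5% of cycling Dnmt1iECKO ECs. Top2a was at 870 CPM, Mki67 at 773 CPM, Pcna at 453 CPM and Ube2c at 288 CPM. With 5 control cells no comparison between libraries was made.

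Summed over the macrophage gate, most cycle genes were lower in the Dnmt1iECKO library, while the cycling share did not differ beyond counting error. The share was 32 of 409 cells in control (7.82%) and 70 of 1123 in Dnmt1iECKO (6.23%), a log2 ratio of −0.33 (−0.95 to 0.32). Unthinned shares were 75.4% and 70.9%, and 1 and 8 cells were too shallow. All 22 G2/M members lay below 0, 7 of them by at least 0.5, against 10.8% of genes (5.67% higher, 16.5% either way), and their median was −0.32. The 22 are not separate observations, since the 1% of cells with the most held 36.2% and 38.4% of the G2/M UMIs of this gate. Mki67, the proliferation marker, was at 123 and 102 CPM (−0.27), Top2a at 58.8 and 42.3 CPM (−0.47), and Plk1, the polo-like kinase of mitotic entry, was lowest at −0.94. G1/S members had a median of −0.28, with 1, Ccne2, lower by at least 0.5 (−0.71), and the balance was 0.14 (0.07 to 0.21), or 0.42 at a doublet rate of 0.8%. In cycling cells alone the G1/S sum was 808 and 953 CPM (0.24) and the G2/M sum 2519 and 2297 CPM (−0.13). In the other cells the G1/S sum was 213 and 178 CPM (−0.25) and the G2/M sum 151 and 156 CPM (0.04). Endothelial markers summed to 502 and 154 CPM in this gate and neutrophil markers to 183 and 342 CPM, and their part in these differences was not tested. Cdkn1a had its highest level here, at 1104 and 978 CPM (−0.18).

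Stromal cells cycled about as rarely as ECs, with 11 of 345 cells in control (3.19%) and 11 of 427 in Dnmt1iECKO (2.58%), 11 and 16 cells being too shallow, and unthinned shares of 47.8% and 36.8%. The G1/S sum was 217 and 194 CPM and the G2/M sum 287 and 258 CPM, a balance of −0.01. The balance was 0.38 (0.22 to 0.55) without cells that had Cdh5 or Pecam1 and 0.56 (0.39 to 0.73) at a doublet rate of 0.8%. Endothelial markers summed to 412 and 181 CPM in this gate, and their part was not tested. Of 20 G2/M members with at least 50 UMIs, 5 were lower by 0.5 and none higher, against 6.61% and 5.29% of genes (11.9% either way). These were Nusap1 (−0.98), Ube2c (−0.94), Aurka (−0.81), Ccnb1 (−0.66) and Cdk1 (−0.63). In the G1/S part Ccne1 (−0.87) and Mcm6 (−0.72) were lower and Mcm2 (0.52) was higher. Bub1b, Aurkb, Cdc45 and Ccne2 were below 50 UMIs. Of these cells, 114 in control and 95 in Dnmt1iECKO were also in the endothelial gate. Cdkn1a was at 370 and 241 CPM (−0.61).

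Cells with at least 1 Hmga2 transcript had been chosen as putative tumor cells, but the melanocyte markers Sox10, Tyr and Mlana did not bear this name out. Over these cells Sox10 had 0 UMIs in control and 1 in Dnmt1iECKO, Tyr 1 and 1, and Mlana 2 and 1, so they are called by the gate. Mitf, of the same marker list, was at 37.8 and 36.8 CPM, above the 27.6 and 24.4 CPM of ECs. Its level did not single out this gate, with 266 and 193 CPM in macrophages and 36.1 and 43.8 CPM in stroma. Ptprc was also detected in 44 of 523 control and 187 of 605 Dnmt1iECKO cells of this gate. The cycling share was 96 of 414 (23.2%, 19.2 to 27.6%) in control and 153 of 495 (30.9%, 26.9 to 35.2%) in Dnmt1iECKO, a log2 ratio of 0.41 (0.04 to 0.80). Unthinned shares were 49.5% and 69.4%, the median depths were 9671 and 19075 UMIs, and thinning left out 109 and 110 cells. When cells were thinned to 5000 UMIs the shares were 36.4% and 41.4%, a log2 ratio of 0.19 (−0.16 to 0.53), so the difference in share was within counting error at that depth.

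In the Hmga2 gate the summed levels of the phases moved apart. The G2/M sum was 1859 CPM in control and 2221 CPM in Dnmt1iECKO (0.26), the G1/S sum 569 and 487 CPM (−0.23), and the balance −0.48 (−0.53 to −0.44). Among cycling cells 71.9% (61.8 to 80.6%) in control and 81.0% (73.9 to 86.9%) in Dnmt1iECKO had at least 3 G2/M members, and 17.7% (10.7 to 26.8%) and 7.19% (3.64 to 12.5%) had at least 3 G1/S members without 3 G2/M members. These differences were smaller when cells were thinned to 5000 UMIs, at 63.87% and 67.04% for the first share. The second share was then 21.01% (14.08 to 29.43%) and 16.76% (11.60 to 23.05%). At least 3 G1/S members, with or without 3 G2/M members, were detected in 62.18% and 49.72% at that depth. All 22 G2/M members lay above 0 with a median of 0.31, though only Nusap1, a spindle protein, passed 0.5, at 33.3 and 50.8 CPM (0.61), against 10% of genes higher (17.8% either way). Top2a had its highest level outside the thymocyte-like cells, at 399 and 445 CPM (0.16). Of the 15 G1/S members 12 lay below 0, and 2 were lower by at least 0.5, against 7.8% of genes. Both are E-type cyclins, with Ccne1 at 17.7 and 7.19 CPM (−1.30) and Ccne2 at 23.8 and 15.9 CPM (−0.58). Between the libraries, the endothelial markers of this gate summed to 1164 and 463 CPM and the epithelial markers to 3236 and 1050 CPM, and their part in these differences was not tested. Cdkn1a was at 756 and 657 CPM (−0.20).

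**Figure D4:**
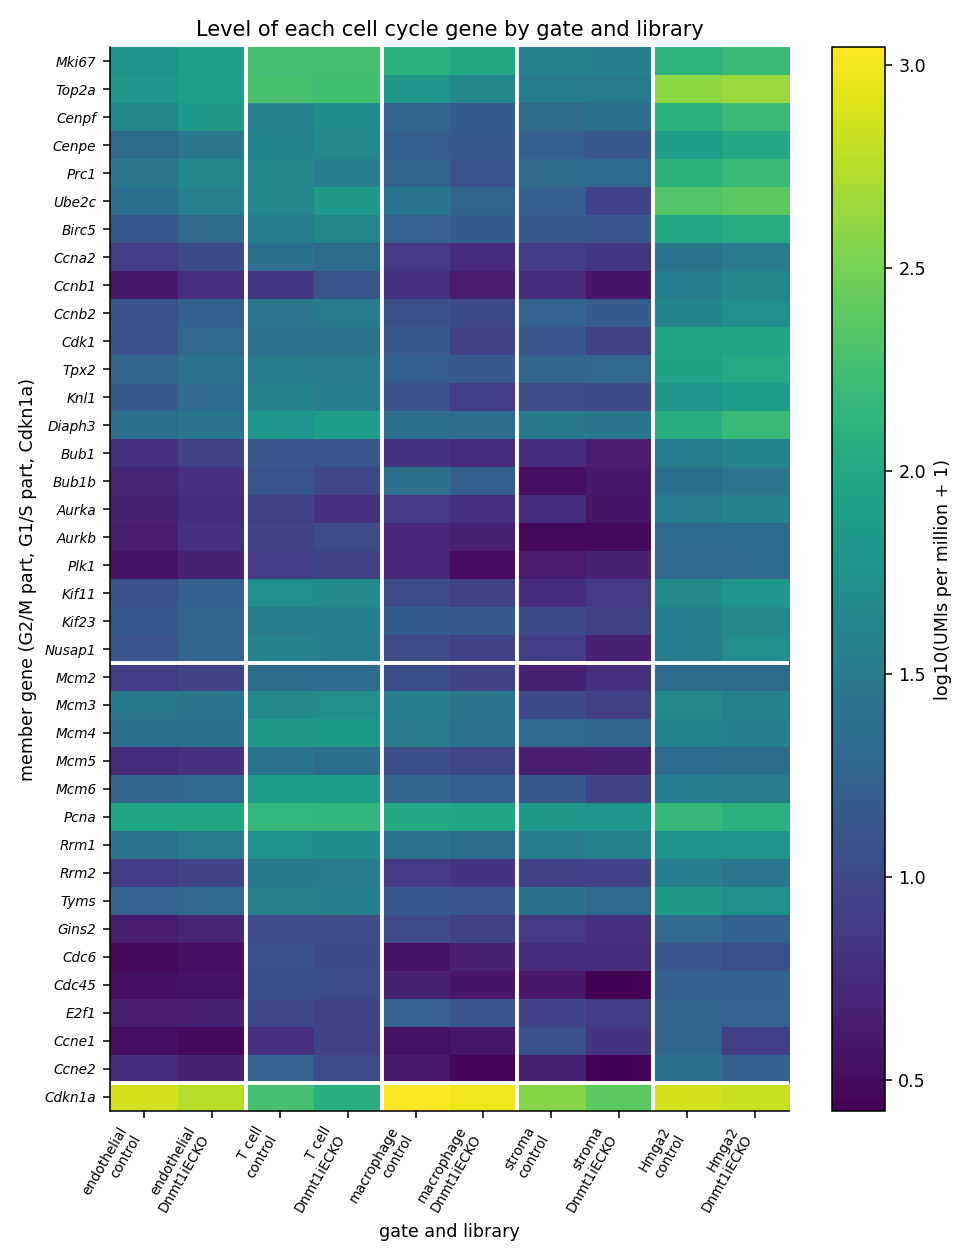
Level of each of the 38 members (rows) in 5 gates and both libraries (columns), as log10 of CPM plus 1. Most G2/M members are brightest in the Hmga2 gate, Mki67 is brightest in T cells, Pcna is bright in every gate, and Cdkn1a (last row) is high in all of them.

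**Figure D5:**
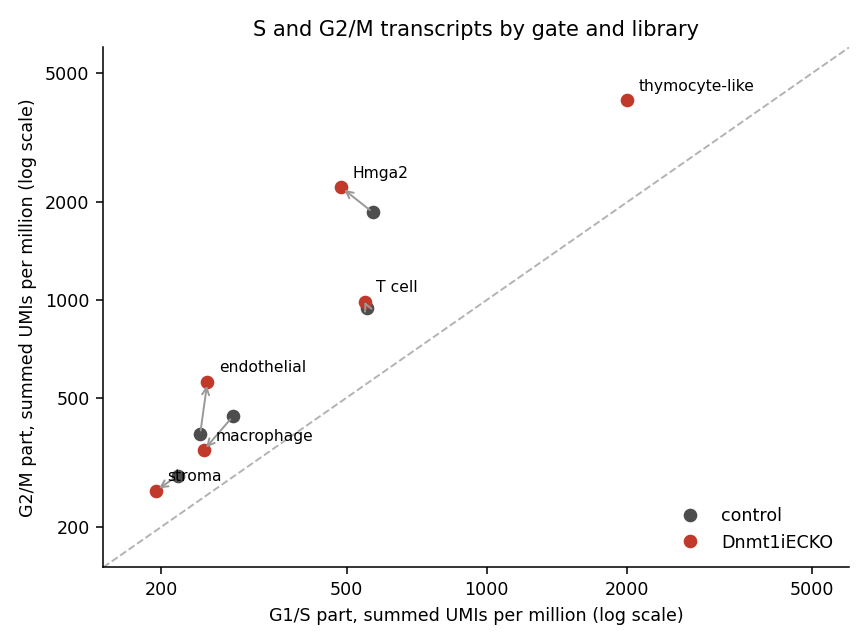
Summed G1/S level (x axis) against summed G2/M level (y axis), both in CPM on log scales, by gate, with an arrow from control (grey) to Dnmt1iECKO (red) at a doublet rate of 0.4%. The dashed line marks equal sums. The endothelial arrow points up (385 to 559 CPM of G2/M transcripts) and the macrophage arrow down and to the left.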

How the data were processed

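Single-cell 3′ libraries of sorted CD31+ CD45− tumor cells, 1 per condition, were analysed. The UMI counts per gene and cell were deposited by the authors as filtered matrices, made with Cell Ranger 9.0.1 and aligned to mm10. From the counts, cells with at least 500 genes and at most 10% mitochondrial UMIs were kept, and those with the highest Scrublet scores (scanpy 1.11.5) were removed at 0.4% per 1000 cells (257 control, 263 Dnmt1iECKO). Gates used raw UMIs. T cells and macrophages needed Ptprc, no Rag1, Dntt or Hmga2, at least 3 markers of their type and the larger of both marker sums. Stromal and epithelial reference cells needed no Ptprc or Hmga2, at least 3 markers and a sum above the other lists, and EC subtypes at least 2 markers. Levels are summed UMIs per 1000000 UMIs of the gate. Shares were taken after 1 seeded draw of 2000 UMIs per cell. Genes with at least 50 UMIs over both libraries were compared, and a log2 ratio of 0.5 was the size threshold. The members and lists were chosen with earlier results of these data known. Genes were named where they ranked among the top 5 or bottom 5 endothelial ratios of their part, with others by role, and up to 4 genes with the most UMIs of each further list. Printed promoters were those of the 3 members of each part with the most UMIs that had a window. Counting scripts were tested on simulated counts. Depth was 123830489 and 141433493 UMIs.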

Additional observations from a re-analysis of the deposited data

Results flagged for a closer look

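The G2/M members as a list lay on opposite sides of 0 in different gates. Their median log2 ratio of Dnmt1iECKO over control was 0.54 in ECs, with all 22 above 0, and −0.32 in macrophages, with all 22 below 0, a gap of 0.86 between the gates. The gap was not tested, since each condition was 1 library, and the endothelial median became −0.49 at a doublet rate of 0.8% per 1000 cells.

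In the Hmga2 gate the same list had a median of 0.31, again with all 22 above 0, so that macrophages differed from it by −0.63. This difference was likewise not tested. The median depth of the Hmga2 gate was 9671 UMIs in control and 19075 UMIs in Dnmt1iECKO, and that of macrophages 27390 and 23613 UMIs.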

How the results depend on the processing

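Of 112 recomputed values, 85 stayed within the counting interval of the reported value and 27 did not, and 24 alternatives were chosen after seeing the data. The endothelial share ratio was 0.49 at 1000 UMIs per cell and 0.36 where Hmga2 was not used, both inside the main interval. The shares of cycling T cells, macrophages, stromal cells and Hmga2 gate cells stayed within their intervals in every alternative run. With doublets removed at 0.8% per 1000 cells, the endothelial cycling share ratio was −0.40, the balance 0.36, the G1/S median −0.20 and the G2/M median −0.49, so that balance and G2/M median reversed. At 0.6%, added after seeing the data, the balance was −0.34 and the G2/M median 0.33, and with no doublet removal the balance was −0.54. The endothelial balance was −0.54 with at least 1000 genes, −0.56 with at most 5% mitochondrial UMIs, −0.72 where Hmga2 was not used in the gate, −0.18 as a median over genes and −0.21 on thinned UMIs (added). The endothelial G2/M median was 0.88 where Hmga2 was not used, 0.30 as a mean over cells and 0.19 on thinned UMIs (added). The T cell balance was −0.21 with no doublet removal, and reversed to 0.01 with at least 5 T cell markers and to 0.12 at 0.8% doublets (added). The macrophage balance was 0.37 in cycling cells only, 0.24 with at least 5 markers, 0.46 on thinned UMIs and 0.42 at 0.8% (both added). The stromal balance was 0.38 without cells that had Cdh5 or Pecam1, −0.22 on thinned UMIs and 0.56 at 0.8% (both added). The Hmga2 balance was −0.72 with at least 3 Hmga2 UMIs and no Ptprc, and −0.83 on thinned UMIs (added). Apart from the doublet step, whose 26 removed cells are described above, the cause of these shifts was not tested.

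No paired analysis was possible because each condition was 1 library, and no library was left out for the same reason. The thymocyte-like share ratio had no value, with 0 of 5 control cells in cycle. Counting error is the only error covered here. Depth limits the genes below 50 UMIs, and the pooled mice leave the spread between animals unmeasured.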

Other observations

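Cells that fell in no gate (696 control, 1611 Dnmt1iECKO) were cycling in 38 of 499 thinned control cells (7.62%) and 67 of 1390 thinned Dnmt1iECKO cells (4.82%), a log2 ratio of −0.66 (−1.26 to −0.05).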
